A study of Mus musculus with 4 samples.

Results

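The mitochondrial ribosome proteins encoded in the nucleus were followed in leukaemic spleen cells of mice given CS1 or PBS. Members were the rows of the deposited table whose symbol is Mrpl or Mrps followed by a number and an optional letter, with pseudogenes left out. This gave 78 of 24497 features, 49 with a large subunit symbol (Mrpl) and 29 with a small subunit symbol (Mrps). All 78 passed the filter on low values, which kept features of at least 1 TPM (a transcript's share of the library, corrected for its length) in at least 2 of the 4 libraries.

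The mitochondrial ribosome translates the few mRNAs of the mitochondrial genome, which encode core subunits of the respiratory chain and ATP synthase. Its rRNAs come from mitochondrial DNA, but every one of its proteins is made in the cytosol from nuclear mRNAs and imported. The small subunit reads the mRNA, and the large subunit joins amino acids and releases the chain through an exit tunnel at the inner membrane. Many of its proteins descend from bacterial ones, and others were added in the mitochondrial lineage. Acute myeloid leukaemia cells are known for their reliance on mitochondrial translation.

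The donor cells were CD45.2 bone marrow cells carrying the MLL-AF9 fusion, taken from primary leukaemic mice and given to secondary recipients irradiated with 320 rads. Recipients in both groups therefore carried the same kind of leukaemia. The control group had PBS and the other group CS1, named in the labels as an FTO inhibitor, injected into the peritoneum at 5 mg/kg on every second day for 20 days. CD45.2 cells were then pulled from spleens with magnetic beads, and polyadenylated RNA was sequenced in 2 libraries a group. The labels give neither the age or strain of the mice nor whether replicates came from separate animals, so the spread between libraries may be technical. For CS1 replicate 2 the labels give CS2 as treatment but CS1 in title and description; it was kept as CS1 and also left out in turn.

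Of the 10 markers of leukaemic myeloid cells, none was at or under 1 TPM in all libraries. Of them 5 were called higher (Elane, Mpo, Kit, Hoxa9, Meis1), 4 lower (Lyz2, Itgam, Ptprc, Csf1r) and 1 was not called (Cebpa). Elane and Mpo, of primary granules, had log2 fold changes of 2.56 and 2.33, and Ptprc, which encodes CD45, fell by 0.89. Their summed level was 16039 and 16199 TPM in PBS and 11012 and 11079 TPM in CS1. Without Lyz2, the lysozyme gene that makes up most of it, the sum was 2911 and 2943 TPM in PBS and 4819 and 4857 TPM in CS1. Markers of other cells were low, with sums of 5.31 to 9.73 TPM over 7 T and NK cell genes, 31.7 to 55.3 TPM over 5 B cell genes, 18.4 to 42.2 TPM over 8 erythroid genes and 38.5 to 47.9 TPM over 8 genes of stroma and endothelium. Between 0 and 6 genes of these lists were at or under 1 TPM in every library, the 6 being in the stroma list. The T and NK, B cell and stroma sums were lower in both CS1 libraries than in either PBS library. The stroma sum was mostly Pecam1, at 45.1 and 43.4 TPM in PBS and 37.8 and 35.7 TPM in CS1. The erythroid sum was higher, at 18.4 and 19.0 TPM in PBS and 42.2 and 35.6 TPM in CS1. Cd79b and Pax5 were called lower (-0.75 and -1.17), and so was Cd3e (-0.76), whose call was lost without PBS replicate 1 (adjusted p = 0.182), PBS replicate 2 (0.0691) or CS1 replicate 1 (0.139), with a pseudocount of 0.1 (0.0545), no filter (0.118), no variance trend (0.0873) or a replicate block (0.0543); Cd3g was at -0.32 (adjusted p = 0.299). Hbb-bs was listed at 0.01 in both PBS libraries and at 13.5 and 12.2 TPM in CS1, Hba-a1 is split with its copy Hba-a2, and Pecam1 and Pdgfrb had log2 fold changes of -0.26 and 0.13. The part of these markers in the results below was not tested. In bulk RNA, a change in the number of cells of a type and a change in RNA per cell cannot be told apart.

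Mitochondrial ribosomal protein genes were mostly higher in CS1, by small amounts. With limma on log2(TPM + 1) and Benjamini-Hochberg adjustment over 11866 features, 50 of 78 members rose, 4 fell and 24 did not pass (adjusted p under 0.05). Over all features tested, 67.0% were called, 35.3% higher and 31.6% lower, against 64.1% and 5.13% of the members. The groups did not overlap, with CS1 higher, for 59 members, and with CS1 lower for 7, where the shares over all features were 45.1% and 39.3%. The median log2 fold change of the members was 0.20, beside 0.04 for all features tested and -0.01 for the 8538 features in the members' range of mean TPM. The quartiles of the members were 0.06 and 0.35. Only 4 of the 50 rises reached 0.5 on the log2 scale, and no member reached 1 in either direction.

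**Figure D1:**
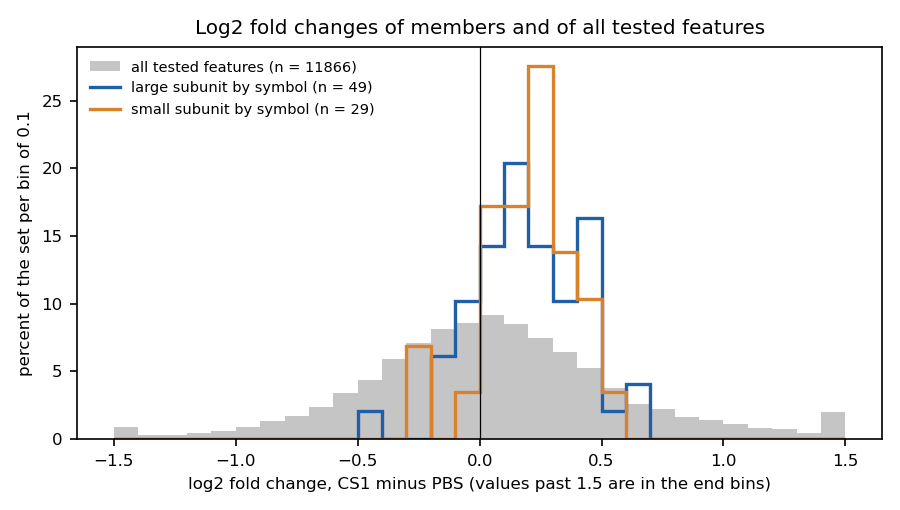
Distribution of log2 fold changes (CS1 minus PBS) in bins of 0.1, as percent of each set, for 49 large subunit genes, 29 small subunit genes and 11866 tested features. The members sit in a narrow band mostly right of 0, while the features spread to both sides.

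The libraries agreed on this direction for most members. Between single libraries across the groups, the median difference of the members was 0.19 to 0.21 on the log2 scale, and 62 to 67 of the 78 members were higher in the CS1 library. Between the 2 PBS libraries the median difference was -0.01, and between the 2 CS1 libraries 0.02. The median absolute difference of a member was 0.06 within either group and 0.20 to 0.22 across groups. Summed over the 78 genes, the level was 4536 and 4491 TPM in PBS and 5026 and 5176 TPM in CS1, a ratio of 1.13 between the group means. As a share of the listed TPM this was 0.460% and 0.455% in PBS and 0.514% and 0.529% in CS1. Both CS1 libraries lay above both PBS libraries. Without CS1 replicate 2, the library with the CS2 entry, 40 members were called higher and 4 lower, and after rescaling by trimmed means 38 were called higher and 7 lower.

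Rises outnumbered falls in each subunit, where 35.3% of all tested features rose and 31.6% fell. Of the 49 large subunit genes 30 rose and 2 fell (61.2% and 4.08%), with a median log2 fold change of 0.19 and quartiles of 0.04 and 0.38. Of the 29 small subunit genes 20 rose and 2 fell (69.0% and 6.90%), with a median of 0.25 and quartiles of 0.10 and 0.34. The large subunit median was thus lower by 0.06, where the quartiles within a subunit lie further apart than that. Without CS1 replicate 2 the gap was 0.0039 with the opposite sign, without PBS replicate 1 it was -0.03, and without PBS replicate 2 or CS1 replicate 1 it was -0.08 and -0.07. Genes within a subunit are not replicates, so the gap was given no test.

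The summed level of the large subunit genes was 3084 and 3018 TPM in PBS and 3414 and 3470 TPM in CS1, a ratio of 1.13. That of the small subunit genes was 1452 and 1473 TPM in PBS and 1612 and 1706 TPM in CS1, again a ratio of 1.13. In each subunit the groups did not overlap. The large sum divided by the small sum was 2.12 and 2.05 in PBS and 2.12 and 2.03 in CS1. Here the groups overlapped, with one library of each near the higher value and one near the lower. Leaving out Mrpl33, which made up 16.2% to 17.1% of the large sum, gave ratios of 1.76 and 1.71 in PBS and 1.77 and 1.70 in CS1.

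**Figure D2:**
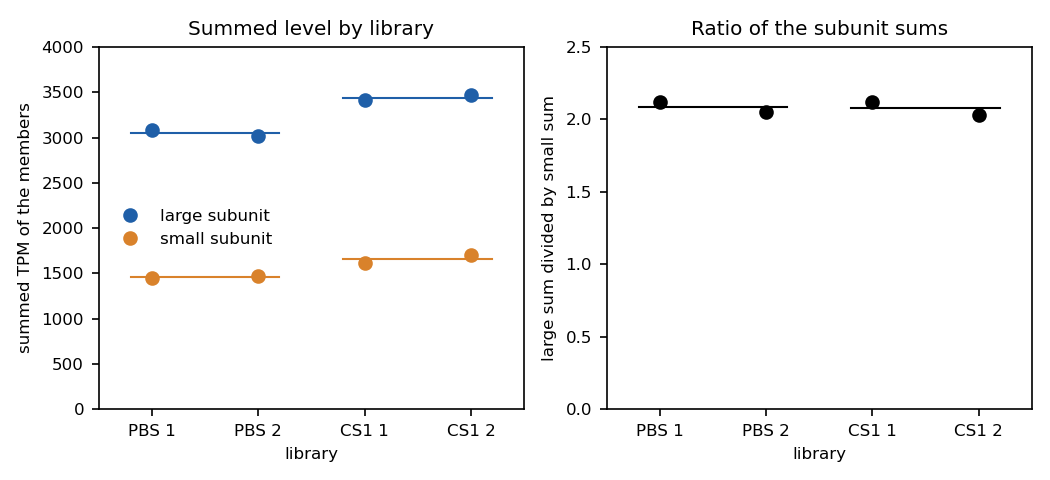
Summed TPM of large and small subunit genes in each library (left) and the ratio of the sums (right); points are libraries and lines are group means of 2 libraries. Both sums are higher in CS1, and the ratio covers 2.03 to 2.12 with overlapping groups.

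Symbols do not always follow the place of a protein in the ribosome. Mrps30 and Mrps18a carry small subunit symbols, but their proteins (mL65 and mL66) sit in the large subunit, and Mrps36 encodes a component of the oxoglutarate dehydrogenase complex. Mrps30 measured 50.7 and 51.9 TPM in PBS and 52.7 and 53.5 TPM in CS1 (log2 fold change 0.05, adjusted p = 0.253), and was slightly below 0 once libraries were rescaled by trimmed means (-0.01). Mrps36 measured 40.4 and 41.2 TPM in PBS and 43.8 and 42.0 TPM in CS1 (0.07, adjusted p = 0.177). Neither passed, although in both genes each CS1 value was above each PBS value, as for 45.1% of all tested features. With genes placed by structure, 31 of 51 large subunit genes rose and 2 fell (60.8% and 3.92%, median 0.19). Of 26 small subunit genes 19 rose and 2 fell (73.1% and 7.69%, median 0.27). The shares over all tested features were 35.3% and 31.6%. The gap between the medians was then -0.08.

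Mrps18a, Mrps18b and Mrps18c are paralogues of one bacterial protein. Mrps18c keeps its place in the small subunit, Mrps18b (mS40) holds another site there, and Mrps18a joined the large subunit. Mrps18c was the most abundant, with 106 and 101 TPM in PBS and 121 and 133 TPM in CS1 (log2 fold change 0.29 ± 0.05, SE, adjusted p = 0.00376). Mrps18a went from 50.4 and 53.3 to 61.6 and 57.8 TPM (0.20, adjusted p = 0.0120). Mrps18b went from 51.9 and 47.9 to 55.2 and 55.4 TPM (0.15, adjusted p = 0.0342). All 3 rose, and in none did the groups overlap. Over all tested features, 35.3% were called higher, and 45.1% had groups that did not overlap with CS1 higher. The call of Mrps18a was lost without PBS replicate 1 (adjusted p = 0.0627) or CS1 replicate 1 (0.0584), and that of Mrps18b without PBS replicate 2 (0.138), CS1 replicate 1 (0.0964) or CS1 replicate 2 (0.105), with no filter (0.0726), no variance trend (0.0806) or after rescaling (0.166).

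Levels differed far more between members than between groups. Mean TPM over the 4 libraries ran from 8.72 for Mrps6 to 536 for Mrpl33, and 62 of 78 members lay between 20 and 130 TPM. Across the 78 genes, Spearman's rho between the group means was 0.97, a description of genes measured in the same libraries. The rho between mean level and log2 fold change was -0.08, likewise a description.

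Mrpl33, a small protein with a bacterial counterpart, stood apart at 527 and 493 TPM in PBS and 554 and 572 TPM in CS1. Its rise was small (log2 fold change 0.14) and was lost after rescaling (adjusted p = 0.122), and also when PBS replicate 2 (0.0551) or CS1 replicate 2 (0.0684) was left out, with no filter (0.0560) and with no variance trend (0.0778). Mrps21, the second most abundant, measured 197 and 206 TPM in PBS and 188 and 211 TPM in CS1. The CS1 libraries of Mrps21 enclosed the PBS ones, and its log2 fold change of -0.02 turned positive after quantile normalization (0.11). Mrpl30 came next at 149 and 147 TPM in PBS and 171 and 170 TPM in CS1, a rise of 0.20 (0.31 after quantile normalization). At the low end, Mrps6 measured 8.36 and 7.89 TPM in PBS and 9.34 and 9.28 TPM in CS1 (0.18, adjusted p = 0.0927). Mrpl35 and Mrpl17, the scarcest of the large subunit, had log2 fold changes of 0.21 and 0.04, neither past the test (adjusted p = 0.0595 and 0.727), and that of Mrpl17 was below 0 after either rescaling (-0.02 and -0.09). With no variance trend Mrps6 and Mrpl35 passed (adjusted p = 0.0314 and 0.0435).

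**Figure D3:**
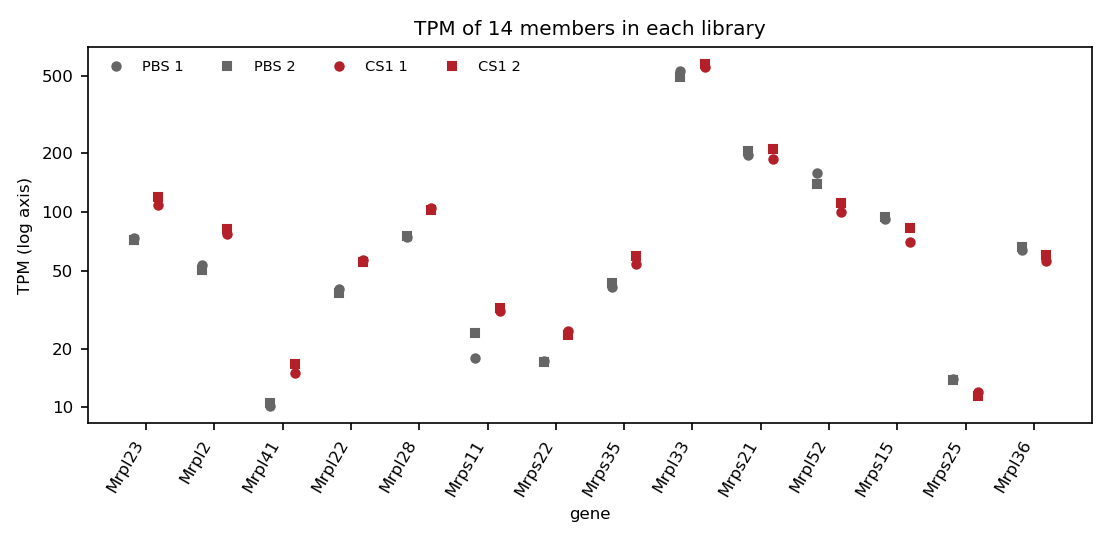
TPM on a log axis of 14 members in each library, grey for PBS and red for CS1. The first 8 genes are among the largest rises, Mrpl33 and Mrps21 are the most abundant members, and the last 4 are the genes called lower.

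The largest rises in the large subunit were those of Mrpl23, Mrpl2, Mrpl41, Mrpl22, Mrpl28 and Mrpl38. Mrpl23 (ENSMUSG00000037772.13, chr7:142532686-142540747, plus strand, mm10) encodes uL23m, at the rim of the exit tunnel. It measured 73.5 and 72.1 TPM in PBS and 109 and 119 TPM in CS1, which is 0.64 ± 0.05 (SE) on the log2 scale, with an adjusted p of 0.000129. Mrpl2 (ENSMUSG00000002767.13, chr17:46646229-46650139, plus strand) encodes uL2m, beside the peptidyl transferase centre where peptide bonds form. It went from 53.3 and 50.3 to 77.3 and 81.6 TPM (0.61 ± 0.05, adjusted p = 0.000112). In both genes the lower CS1 library stood well above the higher PBS library.

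Mrpl41, which has no bacterial counterpart, was a scarce member and went from 10.2 and 10.5 to 15.1 and 16.6 TPM (0.57 ± 0.08, adjusted p = 0.00117). Mrpl22 encodes uL22m, which lines the exit tunnel, and went from 40.4 and 38.6 to 57.1 and 55.4 TPM (0.50). Mrpl28 went from 74.2 and 75.7 to 105 and 102 TPM (0.46), with the smallest adjusted p among the members (7.11e-05). Mrpl38, a protein of the central protuberance, went from 29.0 and 24.0 to 37.3 and 35.04 TPM (0.44). None of these 6 genes lost its call in any alternative.

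In the small subunit the largest rises were those of Mrps11, Mrps22, Mrps28, Mrps35, Mrps26 and Mrps27. Mrps11 (ENSMUSG00000030611.10, chr7:78783119-78792989, plus strand), which encodes uS11m of the platform, went from 17.95 and 24.2 to 31.2 and 32.4 TPM (0.58 ± 0.13, adjusted p = 0.00913). Its PBS libraries differed by more than those of any other member, with a ratio of 1.35, and without PBS replicate 1 the log2 fold change was 0.38. Mrps22, specific to mitochondria, went from 17.2 and 17.0 to 24.5 and 23.4 TPM (0.46 ± 0.06, adjusted p = 0.000769). Mrps35 went from 41.2 and 43.4 to 54.4 and 59.7 TPM (0.42).

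Mrps28 measured 24.9 and 27.9 TPM in PBS and 31.3 and 42.2 TPM in CS1 (0.45 ± 0.14, adjusted p = 0.0302). CS1 replicate 2 was 1.35 times the other CS1 library, and without it the log2 fold change was 0.24 (adjusted p = 0.0615); without PBS replicate 1 or 2 it was 0.37 (0.133) or 0.53 (0.0565). The call was also lost with no filter (adjusted p = 0.101), no variance trend (0.0827) or after rescaling (0.0539). Mrps26 rose from 63.9 and 62.7 to 76.4 and 86.1 TPM (0.35) and Mrps27, with the helical repeats of RNA-binding proteins, from 16.3 and 15.1 to 20.5 and 20.0 TPM (0.35).

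**Figure D4:**
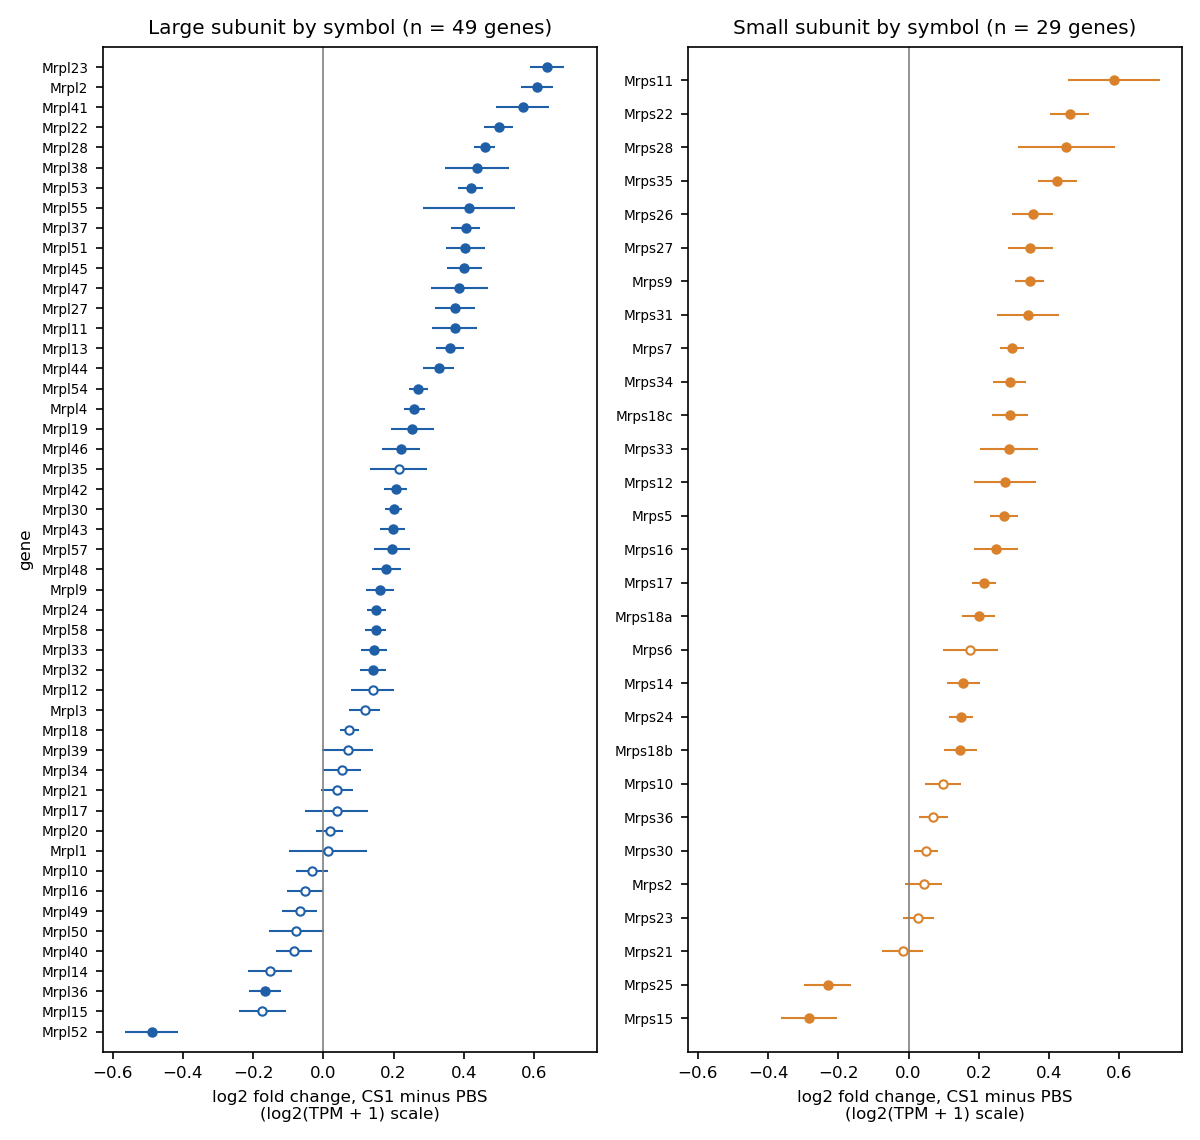
Log2 fold change (CS1 minus PBS, log2(TPM + 1) scale) of each member with its SE from limma, 49 large subunit genes at left and 29 small subunit genes at right, by symbol. Filled points passed at an adjusted p under 0.05; 50 filled points lie right of 0 and 4 left of it.

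The 4 members that fell were Mrpl52, Mrps15, Mrps25 and Mrpl36. Mrpl52 (ENSMUSG00000010406.12, chr14:54426909-54429756, plus strand), a large subunit protein specific to mitochondria, had 159 and 139 TPM in PBS and 100 and 112 TPM in CS1 (log2 fold change -0.49 ± 0.08, SE, adjusted p = 0.00211). Both CS1 libraries were below both PBS libraries, and the call held in every alternative. Mrps15, a bacterial-type small subunit protein, went from 92.0 and 94.5 to 70.0 and 83.4 TPM (-0.28). Mrps25 went from 13.9 in both PBS libraries to 11.96 and 11.5 TPM (-0.23), and Mrpl36 from 64.2 and 66.4 to 56.0 and 60.2 TPM (-0.17).

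These last 3 calls were weak. Mrps15 lost its call without PBS replicate 1 (adjusted p = 0.0649) or PBS replicate 2 (0.0913), Mrps25 without PBS replicate 1 (0.0851), PBS replicate 2 (0.0790) or CS1 replicate 2 (0.0952), and Mrpl36 without PBS replicate 2 (0.1003) or CS1 replicate 1 (0.0860). Mrps15 and Mrpl36 also lost theirs with no filter (adjusted p = 0.0786 and 0.0536), quantile normalization (0.0785 and 0.116) and no variance trend (0.0703 and 0.0621). Mrps25 also shares 4590 exon bases with Nr2c2 on the opposite strand. Mrpl15 (-0.17) and Mrpl14 (-0.15) had CS1 values below both PBS values without passing (adjusted p = 0.0617 and 0.0781), but passed as lower in alternatives. Mrpl15 passed after rescaling (adjusted p = 0.0208), quantile normalization (0.0110) and with no variance trend (0.0496), and Mrpl14 after rescaling (0.0310) and without PBS replicate 2 (0.0437) or CS1 replicate 2 (0.0486). Mrps23, at 67.6 and 67.0 TPM in PBS and 65.9 and 71.4 TPM in CS1, had overlapping groups and a log2 fold change of 0.03, which was -0.03 after rescaling.

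By place in the ribosome, the exit tunnel proteins had the highest median among the sites listed. Sites were listed for only some members, and 53 of 78, Mrpl17 among them, were given none. Of 8 exit tunnel genes 7 rose (median 0.36), and the other, Mrpl39, named after its value was seen, was at 0.07. They include Mrpl4, from 91.6 and 88.4 to 108 and 108 TPM (0.26), Mrpl44, whose protein has a fold like that of RNase III, from 35.8 and 34.1 to 43.8 and 44.4 TPM (0.33), and Mrpl45. Mrpl45 encodes the protein that holds the ribosome to the inner membrane, and rose from 18.6 and 19.0 to 25.4 and 24.9 TPM (0.40 ± 0.05, adjusted p = 0.000940). Of 4 genes of decoding and the mRNA path all rose (median 0.27). Mrps7, of the small subunit head, went from 50.13 and 50 to 60.8 and 62.5 TPM (0.30), and Mrps12, of the decoding site, from 52.1 and 44.6 to 55.1 and 62.2 TPM (0.27), a call lost without PBS replicate 2 (adjusted p = 0.144) or CS1 replicate 2 (0.150), with no filter (0.107), no variance trend (0.0927), after rescaling (0.0880) or with the replicate number as a block (0.0534).

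The stalks, which bind translation factors and guide tRNA out, held fewer calls. Of 4 stalk genes 1 rose (median 0.08), namely Mrpl11, from 12.6 and 13.0 to 16.4 and 17.3 TPM (0.37). Mrpl10 measured 58.2 and 54.8 TPM in PBS and 53.8 and 56.7 TPM in CS1, with overlapping groups and a log2 fold change of -0.03 that was 0.01 after quantile normalization. Mrpl12, which binds to Mrpl10, measured 78.4 and 74.3 TPM in PBS and 89.2 and 79.4 TPM in CS1 (0.14, adjusted p = 0.0871), and passed without CS1 replicate 2 (0.0137), after quantile normalization (0.0227) or with the replicate block (0.0253). Of 4 peptidyl transferase genes 2 rose, Mrpl2 among them, while Mrpl3 was at 0.12 (adjusted p = 0.0559, and 0.0328 after quantile normalization). Of 5 genes listed for the central protuberance 3 rose (median 0.18). Mrpl58, a peptidyl-tRNA hydrolase that became a ribosomal protein, went from 64.9 and 65.9 to 72.5 and 72.6 TPM (0.15, adjusted p = 0.00671, and 0.09 after rescaling). These site lists are short, may leave out proteins of a site, and are descriptions only. The 53 members with no site listed, Mrpl52 and Mrpl58 among them, held 33 rises and 4 falls (median 0.20). Over all tested features, 35.3% were called higher and 31.6% lower.

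Genes were also split by whether the protein has a bacterial counterpart or was added in mitochondria. Of 46 genes of the first kind 27 rose and 2 fell (58.7% and 4.35%, median 0.17). Of 31 of the second kind 23 rose and 2 fell (74.2% and 6.45%, median 0.22). The shares over all tested features were 35.3% and 31.6%. Mrps18a and Mrps18b, though paralogues of a bacterial protein, were counted in the second kind. The order of the medians was the same in each structural subunit, at 0.15 and 0.20 in the large and 0.23 and 0.31 in the small. The ranges between quartiles overlapped, at 0.05 to 0.33 and 0.11 to 0.38. By summed TPM the order in the large subunit was reversed. The ratio of CS1 to PBS group means was 1.1389 for the first kind and 1.1042 for the second. Changes called beyond 0.5 on the log2 scale numbered 3 in the first kind and 1 in the second.

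The members lie on 17 chromosomes (GENCODE M21, GRCm38, the assembly of mm10). A protein-coding gene on the opposite strand starts within 1000 bases upstream of 18 of them (23.1%), against 11.2% of the 10855 protein-coding genes tested. Of the 17 such neighbours tested, 10 rose and 1 fell (median 0.24), beside 35.3% and 31.6% of all tested features. Mrpl2 and Klc4 start 207 bases apart and rose by 0.61 and 0.78, and Mrps12 and Sars2, which encodes the mitochondrial seryl-tRNA synthetase, start 172 bases apart and rose by 0.27 and 0.65. Mrps18b and Ppp1r10 start 45 bases apart and moved apart, by 0.15 and -0.55. These neighbours were named for position after their values were seen.

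Exons of 19 members overlap exons of another tested feature, mostly on the opposite strand. No source used here states a strand setting, which leaves these 19 values uncertain. Among the 59 members without such overlap 37 rose and 2 fell (62.7% and 3.39%, median 0.20). Among the 19 with it 13 rose and 2 fell (68.4% and 10.5%, median 0.22). The shares over all tested features were 35.3% and 31.6%. Mrps11 and Mrpl46 share 173 exon bases head to head, and both rose (0.58 and 0.22).

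Promoter stretches are shown as a description, and their part in the members' levels was not tested. RefSeq promoter windows (GRCm38.p6, 250 bases before to 50 after a RefSeq transcript start) were found for 69 of 78 members, in 75 windows. RefSeq starts lay within 50 bases of the outermost gene start in GENCODE for 48 windows, further inside the gene for 26 and further outside for 1. Capitals mark letters of NRF1 (GCATGCGC), ETS (CCGGAAG) and YY1 (AAGATGG), read on either strand, where NRF1 and the ETS factor GABP are known activators of genes for mitochondrial proteins. The 120 bases before the RefSeq start follow for 3 members with a large rise (Mrpl22, Mrpl23, Mrps22), for Mrps11, which shares its start region with Mrpl46, for Mrpl32, with repeated NRF1 letters, and for Mrpl52, which fell. The RefSeq starts of Mrpl23 and Mrpl32 lie 346 and 128 bases inside the GENCODE genes, so their stretches are inside the genes as GENCODE draws them, and bases before those outer starts were not searched beyond the window.
Mrpl22 (chr11:58171544-58171663, plus strand): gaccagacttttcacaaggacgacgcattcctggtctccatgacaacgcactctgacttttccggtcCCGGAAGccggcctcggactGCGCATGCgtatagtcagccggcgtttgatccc
Mrpl23 (chr7:142532912-142533031, plus strand): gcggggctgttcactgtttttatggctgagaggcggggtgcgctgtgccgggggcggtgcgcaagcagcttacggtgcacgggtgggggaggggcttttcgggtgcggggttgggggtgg
Mrps22 (chr9:98601680-98601799, minus strand): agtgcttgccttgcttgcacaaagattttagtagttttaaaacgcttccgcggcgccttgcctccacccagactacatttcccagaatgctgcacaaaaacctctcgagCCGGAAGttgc
Mrps11 (chr7:78783011-78783130, plus strand): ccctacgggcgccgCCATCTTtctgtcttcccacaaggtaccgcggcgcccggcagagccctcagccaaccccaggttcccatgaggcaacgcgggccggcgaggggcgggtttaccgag
Mrpl32 (chr13:14613038-14613157, minus strand): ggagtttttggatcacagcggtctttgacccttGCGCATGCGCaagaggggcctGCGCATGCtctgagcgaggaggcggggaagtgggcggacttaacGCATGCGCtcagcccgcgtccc
Mrpl52 (chr14:54426789-54426908, plus strand): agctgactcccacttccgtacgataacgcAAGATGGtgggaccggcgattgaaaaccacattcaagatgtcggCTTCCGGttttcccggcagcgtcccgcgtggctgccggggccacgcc

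The stretch of Mrpl22 holds ETS and NRF1 letters, that of Mrps22 ETS letters next to the start. The Mrpl23 stretch holds none of the 3, which says nothing of the bases before its outer GENCODE start. Among the other largest rises, not shown, the windows of Mrpl2, Mrpl41 and Mrpl28 held none of the 3 either. Those of Mrps26 and Mrps27 held ETS letters, and Mrpl38, Mrps28 and Mrps35 had no window. Mrpl52 fell and holds ETS and YY1 letters. Mrpl32, with overlapping and separate NRF1 matches, rose only from 49.3 and 47.4 to 53.5 and 53.5 TPM (0.14), a call lost after rescaling and without PBS replicate 2, CS1 replicate 1 or CS1 replicate 2 (adjusted p up to 0.108).

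Over whole windows, ETS letters were in 34.7% of the members' windows and 18.3% of the 11446 windows of all tested features. YY1 letters were in 17.3% against 7.27%, and NRF1 letters in 10.7% against 5.37%. The MYC E-box (CACGTG) was in 9.33% against 10.1%, the CCAAT box in 40.0% against 38.3% and TATAAA in 6.67% against 6.81%. Windows of one gene can overlap, as the 3 of Mrpl2 do, and all motifs were searched on both strands. By gene, 38 of 69 members held at least 1 of the ETS, YY1 and NRF1 motifs and 0 held all 3. Windows of members called higher held ETS letters in 37.5% of cases and the other members' windows in 29.6%. For YY1 these shares were 18.8% and 14.8%, and for NRF1 10.4% and 11.1%. A match is a description of letters and not of binding.

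Other genes of mitochondrial translation were mixed. Among 5 ribosome proteins whose names fall outside the rule, 1 rose (20.0%), beside 35.3% of all tested features. The gene that rose was Gadd45gip1 (mL64), from 29.5 and 27.0 to 35.3 and 35.4 TPM (0.31, adjusted p = 0.00348). Dap3, the GTP-binding protein of the small subunit, had 22.4 and 22.2 TPM in PBS and 23.9 and 24.8 TPM in CS1 (0.12, adjusted p = 0.0757). Ptcd3, Chchd1 and Aurkaip1 were at 0.05, 0.08 and -0.08 and did not pass; each changed sign in an alternative, Chchd1 without PBS replicate 1 (-0.02). Chchd1 passed without PBS replicate 2 (adjusted p = 0.0232), and Aurkaip1 passed as lower without CS1 replicate 2 (0.0328) or after rescaling (0.0257).

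Of 26 tested genes of mitochondrial ribosome assembly 12 rose and 0 fell (46.2% and 0.0%, median 0.16). Over all tested features these shares were 35.3% and 31.6%. Rbfa, which acts on the small subunit rRNA, went from 122 and 125 to 166 and 169 TPM (0.44, adjusted p = 6.30e-05), and Eral1, an rRNA chaperone of the same subunit, from 25.4 and 28.6 to 38.6 and 38.3 TPM (0.50). Of 17 translation factors and mRNA-handling proteins 6 rose and 4 fell (35.3% and 23.5%, median 0.14). Guf1, an elongation GTPase, rose from 12.7 and 13.1 to 19.9 and 18.4 TPM (0.53), while Tufm, the factor that brings tRNA to the ribosome, fell from 69.2 and 68.8 to 58.0 and 55.8 TPM (-0.27, adjusted p = 0.000938). Of 20 genes for charging mitochondrial tRNA 6 rose and 2 fell (30.0% and 10.0%, median 0.15), with Vars2 and Sars2 at 0.72 and 0.65.

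Of 14 genes of mitochondrial DNA transcription and replication 4 rose and 2 fell (28.6% and 14.3%, median 0.05). Over all tested features these shares were 35.3% and 31.6%. Ssbp1, which coats single-stranded mitochondrial DNA, rose from 35.1 and 36.0 to 53.2 and 51.8 TPM (0.55), and the polymerase gene Polg fell from 48.3 and 49.2 to 35.5 and 36.3 TPM (-0.43). Of 10 tested regulators of mitochondrial gene expression 1 rose and 6 fell (median -0.22). Myc, a transcription factor of growth genes, fell by 0.75, from 71.1 and 65.5 to 38.2 and 42.2 TPM, and Esrra, a nuclear receptor, fell by 0.52, from 50.2 and 50.7 to 34.97 and 34.87 TPM. Nrf1, named for its motif, measured 37.3 and 36.4 TPM in PBS and 34.9 and 32.9 TPM in CS1 (-0.12, adjusted p = 0.0708). Yy1 and the GABP genes Gabpa and Gabpb2 were called lower (-0.22, -0.28 and -0.26), while Gabpb1, also of GABP, was called higher (0.18). Their part in the members' levels was not tested. Cytosolic ribosomal protein genes, taken by symbol, were called higher for 70 and lower for 1 of 74 tested (94.6% and 1.35%, median 0.33). Whether these groups differ from the members was not tested.

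**Figure D5:**
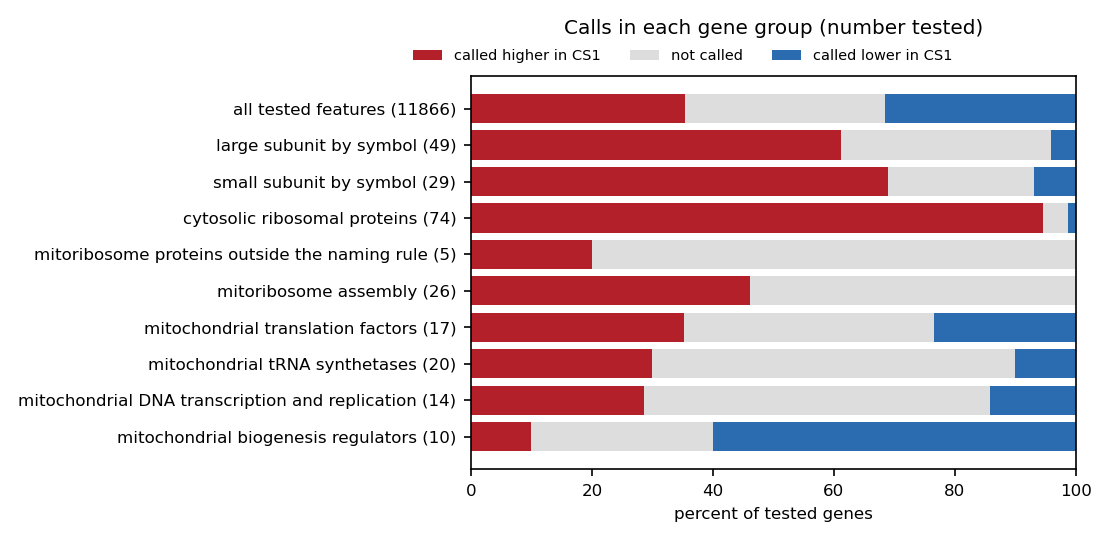
Percent of tested genes called higher in CS1 (red), not called (grey) and called lower (blue) in each gene group, with the number tested in brackets. The subunits of the mitochondrial ribosome show 61.2% and 69.0% higher, against 35.3% of all tested features, and the regulators are mostly blue.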

How the data were processed

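Poly(A) RNA was sequenced from CD45.2-enriched spleen cells in 2 PBS and 2 CS1 libraries, grouped by sample title. STAR, RSEM and mm10 are listed in the submitters' processing notes, and no source used here gives versions, annotation or strand setting. The deposited values were taken as TPM made by the authors, inferred from decimals, near-equal column sums and the use of RSEM; 0.01 is the lowest listed value. Read depth is unknown from TPM, and counting error cannot be stated. TPM is a share, so a fall in abundant transcripts raises the rest.

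Features of at least 1 TPM in at least 2 libraries (11866 of 24497) were tested on log2(TPM + 1) with limma 3.58.1 under R 4.3.3 (variance trend on, two-sided), with Benjamini-Hochberg adjustment over all of them and a call at 0.05. Gene-level adjusted p-values come from this fit, except where an alternative is named beside them, which is a separate fit with its own adjustment. Fold changes on this scale understate those of low genes. With 2 against 2 libraries, permuting labels of a single gene cannot reach the threshold, so no such test is given. The script was tested on simulated data. Alternatives changed the pseudocount (0.1, 0.5), filter (none, 5 TPM), scaling, variance trend, pairing, subunit assignment and libraries.

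Members, lists, roles and tests were chosen with earlier results of these data known. Named members were, in each subunit, the 6 highest and 4 lowest log2 fold changes, the 2 highest and 2 lowest levels, and a set by role; of every other list, the 2 smallest p. Mrpl32, Mrpl39, Mrpl46, Nrf1, Gabpa, Gabpb1, Gabpb2, Yy1, Ptprc and the neighbouring genes were named after their values were seen. Mitochondrially encoded RNAs were not analysed here.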

Additional observations from a re-analysis of the deposited data

How the results depend on the processing

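Of the 50 members called higher, 33 kept the call in all 12 refits (2 pseudocounts, 2 filters, 2 scalings, no variance trend, replicate block, 4 fits without a library), as did 1 of the 4 called lower (Mrpl52); 3 of the 24 not called kept both that and their sign. The members called higher numbered 38 to 51. With the replicate number as a block, 49 were called higher and 4 lower; replicates share only a number (correlation of their deviations 0.02 over 11866 features). Members called lower numbered 2 with no filter (1 in each subunit) and 7 after rescaling by trimmed means of M values (5 in the large subunit); small subunit falls numbered 1 after quantile normalization and with no variance trend. Without 1 library they numbered 2 to 4, with 1 to 3 in the large and 0 to 2 in the small subunit; the lone library of a group is then assumed to vary like the other group. The large and small subunit medians were 0.134 and 0.187 after rescaling, the large one 0.218 after quantile normalization, and the small one 0.273 by placement. Without 1 library they ranged from 0.163 to 0.205 and from 0.201 to 0.25. The large minus small gap was -0.0779 by placement and ranged from -0.0756 to 0.0039 without 1 library.

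In all, 13 members changed sign in an alternative, 0 of them called. Of the genes named by rule these were, with genes of other lists, after rescaling Mrpl17 -0.0204, Mrps23 -0.0349, Mrps30 -0.0129 and Ptcd3 -0.00792; after quantile normalization Mrpl10 0.0125, Mrpl17 -0.0928, Mrps21 0.107, Aurkaip1 0.00578 and Pdgfrb -0.118; over the fits without 1 library Mrpl10 ranged from -0.0746 to 0.0107, Chchd1 from -0.0217 to 0.174, Mrps21 from -0.102 to 0.0688, Mrpl17 from -0.0536 to 0.129, Pdgfrb from -0.0114 to 0.278, Mrps23 from -0.0282 to 0.0844 and Hba-a1 from -4.13 to 0.618. Their cause was not tested.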
